A study of Mus musculus with 12 samples.

Results

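Cytochrome P450 (Cyp) genes of families 1 to 4 encode the haem enzymes that oxidise drugs, plant compounds, steroids and fatty acids. They were followed here in mouse small-intestinal organoids, which are epithelial cultures grown from intestinal stem cells. Every row whose symbol names one of these families was taken, from Cyp1a to Cyp4x, without the 20 rows named as pseudogenes and without other families such as Cyp24a1 or Cyp27a1. This gave 83 genes of 32587 rows, 3 of them in family 1, 50 in family 2, 9 in family 3 and 21 in family 4. There were 4 groups of 3 RNA libraries each. Wild-type organoids, which the labels place in the duodenum, received 1 of 3 bile acids or, as control, dimethyl sulfoxide (DMSO) as solvent. The acids were cholic acid, written CA, its relative chenodeoxycholic acid, written CDCA, and the bacterial product deoxycholic acid, written DCA. All 4 groups shared the genotype, the commercial IntestiCult growth medium and 2 days of culture before exposure. A dose of 50 mmol/L is written for the acids, whose unit is doubtful because it far exceeds what cultured cells usually receive, and the length of exposure reads 2 days in one label and 96 hours in another. Whether the 3 libraries of a group were grown separately is not stated, so p-values cover only the spread among these libraries, which could be technical.

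P450 enzymes sit in the endoplasmic reticulum and take electrons from P450 oxidoreductase (Por), with cytochrome b5 as a helper. In the small intestine they lie mainly in the absorptive enterocytes of the villus, where they oxidise swallowed compounds before these reach the liver. Many of the genes are switched on by ligand-activated regulators: the aryl hydrocarbon receptor (Ahr) for family 1, the pregnane X receptor (Pxr, gene Nr1i2) and the constitutive androstane receptor (Car, gene Nr1i3) for Cyp2b, Cyp2c and Cyp3a, and Ppara for Cyp4a. The bile acids themselves are ligands of nuclear receptors, among them the farnesoid X receptor (Fxr, gene Nr1h4). CDCA and DCA each lack a ring hydroxyl group that CA carries, a different one in each acid.

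Levels are in TPM, transcript abundances scaled by transcript length and by the library's total, so that levels of different genes can be set side by side. Tests used limma on log2(TPM + 1) in 1 fit of all 12 libraries, two-sided, with Benjamini-Hochberg adjustment over the 11952 rows that reached 1 TPM in at least 3 libraries. A gene was called at an adjusted p under 0.05, and a difference is a log2 difference on that scale, in which the added 1 shrinks the change of low genes. The read depth behind the TPM is unknown, so no counting error can be given. The 20 enterocyte markers all passed the filter, with Fabp1 reaching 4129 TPM. Markers of other tissues were near 0: per library, 10 mesenchymal markers summed to 3.69 to 6.91 TPM (Dcn and Lum at 0), 8 immune markers to 3.33 to 5.61 TPM, 6 endothelial markers to 2.38 to 3.89 TPM (Cdh5 at 0) and 8 hepatocyte markers to 0.918 to 2.28 TPM (Cyp8b1 at 0). Every library was placed between the mean of the DMSO group (0) and that of the DCA group (1) over all tested genes. A DMSO or DCA library was left out of its own group's mean, which sets it further from that mean than a mean holding it would. Positions of DMSO and CDCA libraries are thus not measured quite alike. DMSO replicate 1 lay at 0.33 and CDCA replicate 3 at 0.52, while the other DMSO and CDCA libraries lay between -0.028 and 0.17. Counts of P450 genes called are given with and without DMSO replicate 1 and CDCA replicate 3. Both were picked by their place on the line to DCA, so every count without them is a description and not a check.

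Most of the family was at or near 0 in these organoids. Of the 83 genes, 28 passed the filter, 53 were under 1 TPM in every library and 16 of those were listed at 0 throughout. The other 2 genes below the filter, Cyp2c40 and Cyp2d10, passed 1 TPM in 1 library each, at 1.08 and 1.05 TPM. Near the filter, Cyp2r1, which hydroxylates vitamin D in its first activation step, reached 1 TPM in 4 libraries, Cyp3a59 reached it in 8, and Cyp2c67 stayed below at no more than 0.879 TPM. The 28 were 7 of 15 Cyp2c genes, 5 of 9 Cyp4f genes, 4 of 9 Cyp3a genes, 2 of 9 Cyp2d genes, 2 of 8 Cyp2j genes, 1 of 5 Cyp2b genes, and the single genes Cyp2e1, Cyp2r1, Cyp2s1, Cyp2u1, Cyp2w1, Cyp4b1 and Cyp4v3. None of the 3 family 1 genes, the 4 Cyp2a genes or the 8 Cyp4a genes passed.

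The textbook inducible genes outside Cyp2 and Cyp3 stayed near 0 under every acid. Cyp1a1, the classic target of Ahr, reached at most 0.19 TPM in any library and was listed at 0 in the 3 DCA libraries. Cyp1a2 and Cyp4a14 were listed at 0 in all 12 libraries. Cyp1b1 did not exceed 0.0881 TPM. Cyp4a10, the fatty-acid hydroxylase best known as a Ppara target, did not exceed 0.354 TPM. An exact 0 in such files can be a failed estimate, and no fold is given for these genes.

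Among the genes that were expressed, a few carried most of the RNA. The 83 genes together held 0.14% to 0.388% of the TPM listed for a library. The top 5 of them held between 64.5% and 69.1% of the P450 sum in a group. The listed rows summed to 889156 to 920464 TPM in the DMSO libraries and 932615 to 936841 TPM in the DCA libraries. These sums fall short of 1000000 and do not overlap, and what is missing is not stated. Cyp2c55, an arachidonic acid hydroxylase known from the lower gut, led in all 4 groups, with 469 ± 97.6 TPM (SD, n = 3) under DMSO, 567 ± 51.3 TPM under CA, 503 ± 81.5 TPM under CDCA and 834 ± 46.0 TPM under DCA. Cyp2c66, an intestinal arachidonic acid epoxygenase, came next in each group, from 221 TPM with DMSO to 507 TPM with DCA. Cyp2c65 and Cyp2d26 took the places after it in every group, Cyp2d26 passing Cyp2c65 only in the DCA means. In the DMSO libraries the 3 values of Cyp2c66 (321, 164 and 177 TPM) overlapped those of Cyp2c65 (239, 149 and 158 TPM), although Cyp2c66 was the higher of the pair within each library. In all, 20 genes reached 10 TPM and 10 reached 100 TPM in at least 1 group mean.

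**Figure D1:**
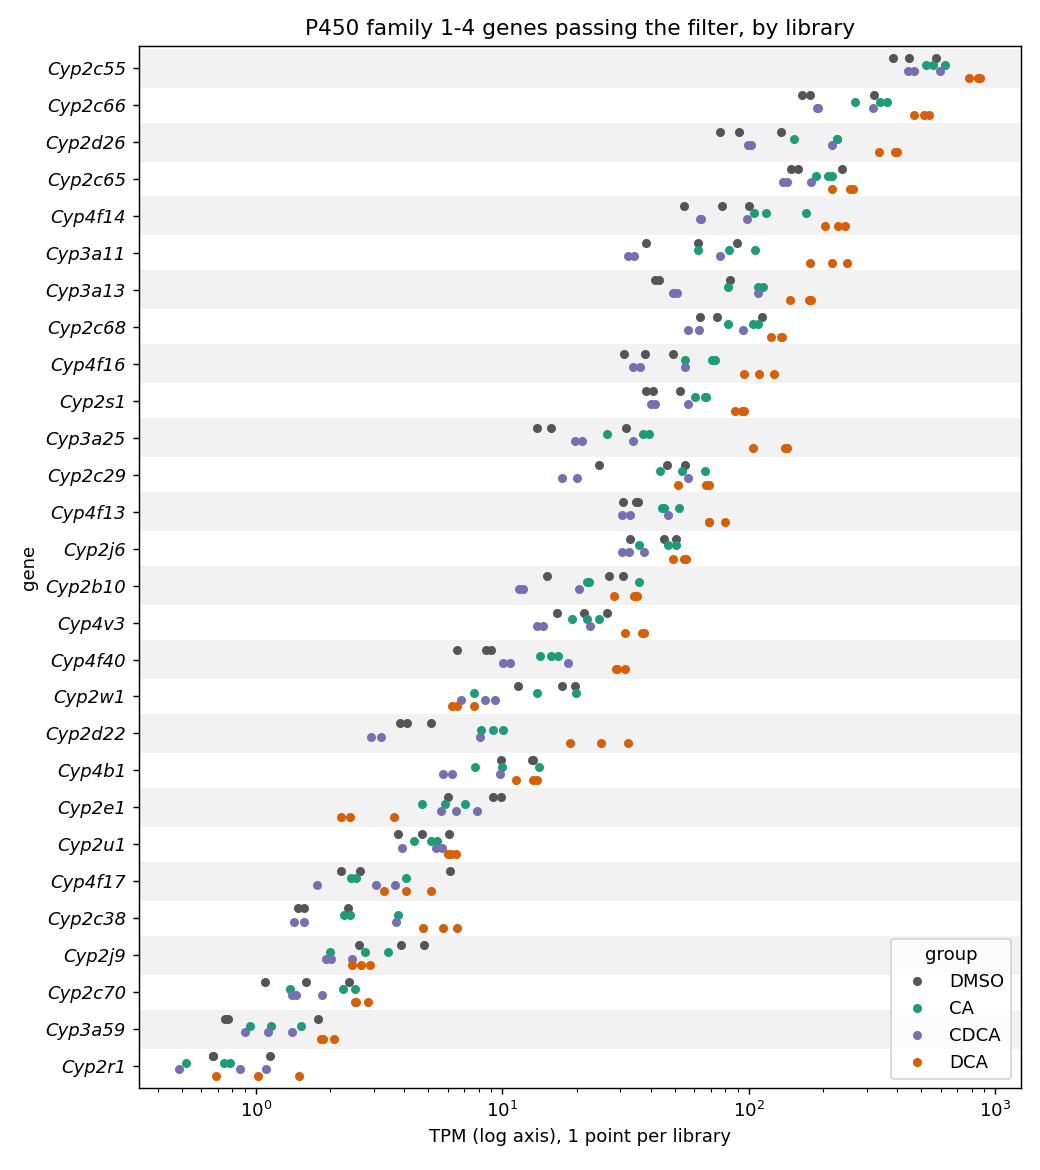
The level of each of the 28 genes that passed the filter in each of the 12 libraries, in TPM on a log axis, ordered by mean level. Each point is 1 library and the colour gives the group. The DCA points lie to the right of the DMSO points for most genes, and to their left for Cyp2e1 and Cyp2w1.

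Many of the expressed genes lay beside members that did not pass the filter. In the gene order of the RefSeq table for mouse build GRCm38.p6, 69 of the 83 genes formed 11 runs of direct neighbours. The longest run held 14 Cyp2c genes from Cyp2c55 to Cyp2c70, of which 7 passed the filter. Between and beside them, Cyp2c39, Cyp2c50 and Cyp2c54 stayed at or near 0. A run of 8 Cyp3a genes had only Cyp3a11, Cyp3a25 and Cyp3a59 above the filter, and those were 3 direct neighbours at its end. Each of the 2 Cyp2d runs of 4 genes had a single expressed gene at its edge, Cyp2d22 in one and Cyp2d26 in the other. In the run of 10 genes from Cyp4x1 to Cyp4b1, 8 of them Cyp4a, Cyp4b1 alone passed. Of the 53 genes below the filter with a GENCODE transcript, 33 share over 10% of its 31-base words with other members. The expressed Cyp2c68 shares 53.6% with Cyp2c40, which did not pass, so reads could be divided wrongly between copies. The 20 pseudogene rows, 3 of which passed the filter, were not compared. A low share here and below therefore covers the other members only.

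**Figure D2:**
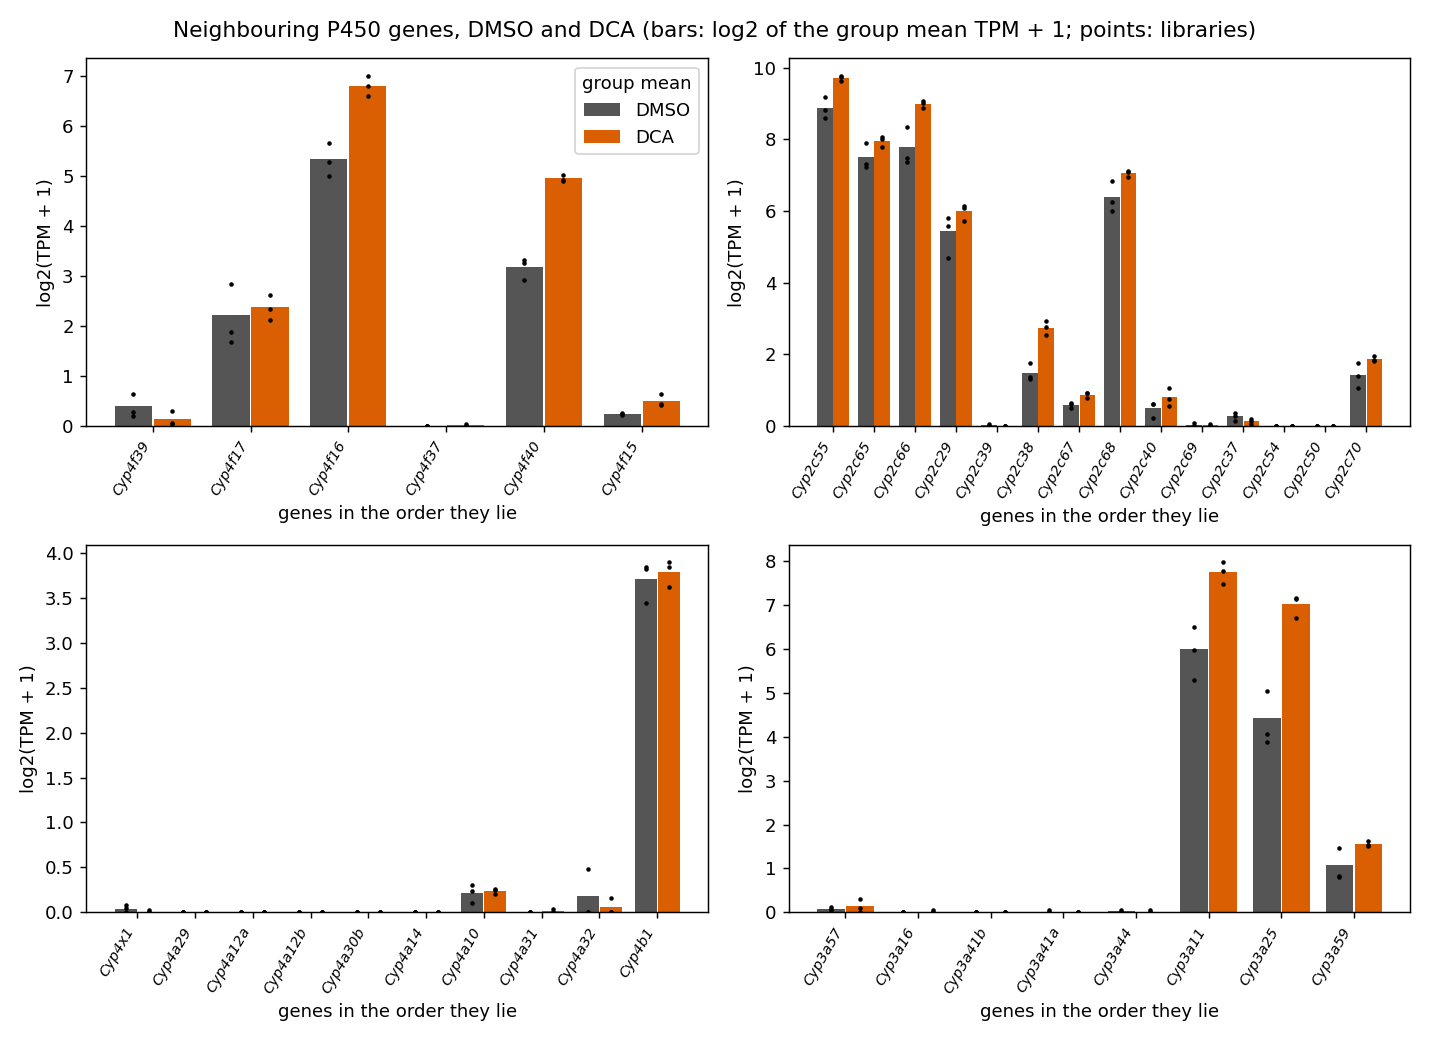
Levels of neighbouring P450 genes in their order along the chromosome, for runs of Cyp4f, Cyp2c, Cyp4a with Cyp4b1 and Cyp3a. Bars show log2 of the group mean TPM + 1 for DMSO and DCA and points show the 3 libraries. In the Cyp2c run the first 4 genes from Cyp2c55 to Cyp2c29 are expressed and the 5 from Cyp2c40 to Cyp2c50 are not, and the 3 expressed Cyp3a genes stand together.

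The upstream sequence of some of these genes is shown because expressed and silent neighbours carried the same short motif. RefSeq gives a window of the 250 bases before the start for 67 of the 83 genes, 25 of them among the 28 that passed. The letters CAAAGTCCA, a strong binding sequence of the enterocyte and hepatocyte factor Hnf4a, were searched on both strands. They occurred in 4 of the 25 expressed genes (16%: Cyp2c65, Cyp2c68, Cyp2c70 and Cyp3a11) and in 6 of the 42 others (14.3%: Cyp2c40, Cyp2c67, Cyp2c69, Cyp3a16, Cyp3a41a and Cyp3a41b). The share was 0.518% of the 9465 tested genes searched and 0.451% of all 27025 genes searched. The letters TATAAA, the core of a TATA box, occurred in 36% of the expressed P450 genes and 40.5% of the others. They occurred in 8.18% of tested genes and 14.3% of all genes searched. Neither motif was limited to the genes that were expressed, and similar copies share their upstream sequence as well, so the genes are not separate observations. A match describes letters only and is not evidence of a site in use. In the windows below, 5′ to 3′ on the gene's strand and ending at the base before the start, capitals mark these 2 motifs. Coordinates are GRCm38.p6, from RefSeq, while the expression tables were made on GRCm39.

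Cyp3a11, expressed and higher under DCA, chr5:145879855-145880104, minus strand: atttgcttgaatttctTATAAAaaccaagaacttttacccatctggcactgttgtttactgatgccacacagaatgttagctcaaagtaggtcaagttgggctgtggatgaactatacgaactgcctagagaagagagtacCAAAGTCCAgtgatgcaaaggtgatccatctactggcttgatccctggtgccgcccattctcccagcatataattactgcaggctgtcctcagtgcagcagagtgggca
Cyp3a41a, at or near 0 in all groups, chr5:145720137-145720386, minus strand: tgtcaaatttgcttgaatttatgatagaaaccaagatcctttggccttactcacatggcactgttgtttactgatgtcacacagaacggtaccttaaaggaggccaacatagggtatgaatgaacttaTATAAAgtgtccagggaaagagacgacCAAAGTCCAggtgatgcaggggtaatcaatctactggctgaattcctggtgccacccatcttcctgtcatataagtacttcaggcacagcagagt
Cyp2c65, expressed, chr19:39060756-39061005, plus strand: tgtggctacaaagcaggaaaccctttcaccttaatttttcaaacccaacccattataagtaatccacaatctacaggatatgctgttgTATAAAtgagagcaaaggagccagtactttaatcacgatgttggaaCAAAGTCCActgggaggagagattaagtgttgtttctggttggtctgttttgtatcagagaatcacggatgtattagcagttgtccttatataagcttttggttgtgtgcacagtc
Cyp2c68, expressed, chr19:39741102-39741351, minus strand: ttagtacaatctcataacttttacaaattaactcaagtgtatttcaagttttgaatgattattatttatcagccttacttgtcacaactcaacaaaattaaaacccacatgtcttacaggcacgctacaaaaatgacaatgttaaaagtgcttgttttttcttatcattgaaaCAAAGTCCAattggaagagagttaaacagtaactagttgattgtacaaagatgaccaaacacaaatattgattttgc
Cyp2d26, expressed and higher under DCA, chr15:82794246-82794495, minus strand: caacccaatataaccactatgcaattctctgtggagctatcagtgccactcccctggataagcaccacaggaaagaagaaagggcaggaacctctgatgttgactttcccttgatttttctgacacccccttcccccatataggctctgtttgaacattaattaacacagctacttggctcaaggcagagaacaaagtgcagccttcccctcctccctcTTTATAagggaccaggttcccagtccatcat
Cyp2e1, expressed and lower under DCA, chr7:140763569-140763818, plus strand: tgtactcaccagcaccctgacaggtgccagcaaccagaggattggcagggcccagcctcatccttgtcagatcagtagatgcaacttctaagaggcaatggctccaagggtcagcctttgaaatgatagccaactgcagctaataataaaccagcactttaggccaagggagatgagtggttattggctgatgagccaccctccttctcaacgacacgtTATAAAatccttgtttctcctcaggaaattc

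The Hnf4a letters began 109 bases before the start in Cyp3a11 and 95 bases before it in Cyp3a41a, a gene that did not exceed 0.0674 TPM in any library. They began 116 bases before the start in Cyp2c65 and 77 bases before it in Cyp2c68. In Cyp2d26 (reverse strand) and Cyp2e1, which moved in opposite directions under DCA, the TATA letters began 31 bases before the start and the Hnf4a letters were not in the window. In Cyp3a11, Cyp3a41a and Cyp2c65 the TATA letters began 234, 122 and 162 bases before the start. The shares above count the letters at any place in the window and on either strand.

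Most of the expressed P450 genes were higher with DCA than with DMSO. Of the 28, 17 were called higher and 2 lower with DCA than with DMSO, beside 18.8% called higher and 19.2% called lower among all 11952 genes tested. The median difference of the 28 was 0.70, against -0.021 over all genes tested. Genes whose 3 DCA libraries lay wholly above the 3 DMSO libraries numbered 17 (24.2% of all tested), and 2 lay wholly below (26.0%). Without both DMSO replicate 1 and CDCA replicate 3, 19 genes were called higher (Cyp2c29 and Cyp2j6 in addition) and 2 lower. DMSO replicate 1 was the control library nearest to DCA, so the choice itself widens this comparison. Over all genes tested, 43.2% were then called, in either direction. The rises were spread over Cyp2c, Cyp2d, Cyp3a and Cyp4f, and the 2 falls were single genes of family 2. Summed over the 83 genes, the level was 2058.5, 1244 and 1472 TPM in the DMSO libraries and 3500.4, 3621 and 3067 TPM in the DCA libraries, which did not overlap. Mitochondrial rows held 17.0%, 20.1% and 14.6% of the TPM in the DMSO libraries and 11.2%, 11.6% and 12.7% in the DCA libraries, which did not overlap either. Once those rows and rRNA were removed and TPM rescaled, 14 of the 30 P450 genes then tested were called higher and 3 lower. In that fit 47.5% of all genes tested were called, in either direction. These are bulk libraries, in which fewer cells of a type and less RNA per cell cannot be told apart.

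Markers of the enterocyte moved with the P450 genes. Their summed level was 4913, 3027 and 4513 TPM in the DMSO libraries and 10145, 10519 and 8119.8 TPM in the DCA libraries, and 18 of 20 were called higher with DCA, with a median difference of 1.36. Of 13 stem cell markers 11 were called lower, as were all 15 proliferation markers, 5 of 8 goblet cell markers, 6 of 8 Paneth cell markers and 5 of 8 enteroendocrine markers, with 1 of the last group (Pyy) higher. Among all genes tested 18.8% were called higher and 19.2% lower. The P450 sum divided by the enterocyte marker sum was 0.326 to 0.419 in the DMSO libraries and 0.344 to 0.378 in the DCA libraries, ranges that overlap. That marker sum includes Fabp1, whose mean alone was 1036 TPM with DMSO and 3668 TPM with DCA. Of the 28 genes, 8 had a difference above the enterocyte median: Cyp3a25, Cyp2d22, Cyp2d26, Cyp3a11, Cyp4f40, Cyp3a13, Cyp4f14 and Cyp4f16. The part of the marker change in the P450 result was not tested.

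**Figure D3:**
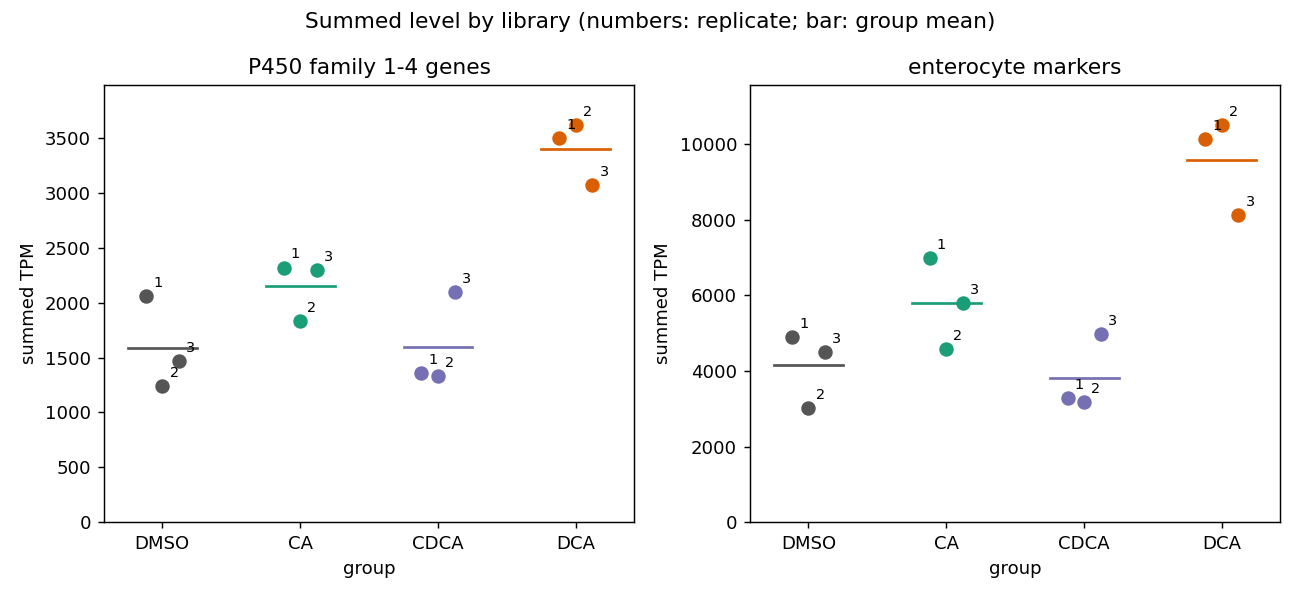
Summed TPM of the 83 P450 genes (left) and of 20 enterocyte markers (right) in each library, with the replicate number beside each point and the group mean as a bar. The 3 DCA libraries stand above all others in both sums, and CDCA replicate 3 and DMSO replicate 1 stand highest in their groups.

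The Cyp3a genes, whose enzymes oxidise a broad range of drugs and steroids and whose best-known member Cyp3a11 is the standard Pxr target, included the gene with the largest difference of the 28. All 4 expressed Cyp3a genes were called higher with DCA. Cyp3a25 had 31.8, 13.8 and 15.8 TPM in the DMSO libraries and 140.3, 143 and 104 TPM in the DCA libraries. Its DCA libraries lay far above all others, the mean rose 6.30-fold, and the difference was 2.68 (95% interval 2.04 to 3.31, limma adjusted p = 8.90e-05). Cyp3a11 had 89.1, 38.3 and 61.9 TPM with DMSO, 106, 61.9 and 83.2 TPM with CA, 32.4, 34.1 and 76.6 TPM with CDCA and 218, 249.9 and 177 TPM with DCA. The lowest DCA library was above the highest of the other 9, and CDCA replicates 1 and 2 were the lowest of all 12. The difference between DCA and DMSO was 1.82 (95% interval 1.00 to 2.63, limma adjusted p = 0.00323). Cyp3a13, the Cyp3a gene typical of the intestine, had 83.7, 43.4 and 41.8 TPM in the DMSO libraries and 175, 178 and 147 TPM in the DCA libraries, without overlap, a difference of 1.62 (95% interval 0.91 to 2.32, limma adjusted p = 0.00259). Cyp3a59 was low, at 1.78, 0.771 and 0.751 TPM with DMSO and 2.06, 1.88 and 1.83 TPM with DCA. Its call was marginal, with a difference of 0.51 (limma adjusted p = 0.0478), and it was lost in 10 of 14 alternative analyses, among them the fits without DMSO replicate 2, without DMSO replicate 3 or without any single DCA library. Cyp3a25 and Cyp3a59 share 41.5% and 42.3% of their 31-base words with each other in the GENCODE transcripts, and Cyp3a11 shares 32.4% with other members, so reads could be divided between copies, whereas Cyp3a13 shares 0.137%.

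In the Cyp2d genes, whose human counterpart clears many psychiatric and heart drugs, both expressed members rose. Cyp2d22, regarded as the mouse counterpart of that human enzyme, had 5.14, 3.84 and 4.11 TPM with DMSO, 10.03, 8.19 and 9.17 TPM with CA, 2.92, 3.21 and 8.14 TPM with CDCA and 25.1, 32.4 and 18.8 TPM with DCA. The DCA libraries were the highest by far, the CA libraries lay above all DMSO libraries, and CDCA replicate 3 lay apart from its group, close to the CA libraries. The mean rose 5.83-fold from DMSO to DCA, a difference of 2.28 (95% interval 1.68 to 2.88, limma adjusted p = 0.000130). Cyp2d26 was more abundant, with 135, 76.0 and 90.8 TPM with DMSO, 228, 153 and 229 TPM with CA, 99.1, 102 and 217 TPM with CDCA and 391, 398 and 337 TPM with DCA. Here too the DCA libraries did not overlap those of any other group, and the difference from DMSO was 1.93 (95% interval 1.26 to 2.59, limma adjusted p = 0.000685). Cyp2d26 shares 15.5% and Cyp2d22 9.93% of its 31-base words with other members.

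The Cyp4f genes encode hydroxylases that inactivate leukotrienes and begin the breakdown of vitamins E and K. Of 5 expressed members 4 were called higher with DCA. Cyp4f40 had 8.96, 6.57 and 8.58 TPM with DMSO, 15.7, 14.2 and 16.8 TPM with CA, 10.04, 10.7 and 18.5 TPM with CDCA and 29.1, 31.5 and 28.8 TPM with DCA. Each acid's 3 libraries lay above the 3 DMSO libraries, and the DCA libraries lay above all others. Its difference between DCA and DMSO was 1.78 (95% interval 1.38 to 2.18, limma adjusted p = 4.78e-05), the smallest p of the 28 in that comparison. Cyp4f14, a leukotriene and vitamin E hydroxylase, had 100.3, 54.5 and 77.5 TPM with DMSO and 229, 246 and 204 TPM with DCA, a difference of 1.58 (95% interval 1.06 to 2.09, limma adjusted p = 0.000432). Cyp4f16 had 49.1, 31.1 and 37.8 TPM with DMSO and 110.0, 126 and 95.4 TPM with DCA, a difference of 1.48 (95% interval 1.05 to 1.91, limma adjusted p = 0.000193). Cyp4f13 had 34.8, 35.5 and 30.9 TPM with DMSO and 80.2, 69.0 and 69.2 TPM with DCA, a difference of 1.09 (95% interval 0.79 to 1.39, limma adjusted p = 0.000144). In these 3 genes no DCA library overlapped a DMSO library. Cyp4f17 was the exception in the subfamily, with 2.65, 2.21 and 6.11 TPM with DMSO and 5.12, 4.06 and 3.31 TPM with DCA. Its groups overlapped, and its difference of 0.23 (95% interval -0.40 to 0.85, limma adjusted p = 0.567) did not pass the test. Cyp4f16 shares 38.4% of its 31-base words with other members, so reads could be divided, and Cyp4f13, Cyp4f14, Cyp4f17 and Cyp4f40 share 6.88% to 9.94%.

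The Cyp2c genes, which make signalling lipids from arachidonic acid besides oxidising drugs, were the most abundant subfamily. Of 7 expressed members 5 were called higher with DCA. Cyp2c66 had 321, 164 and 177 TPM with DMSO and 515, 539 and 468 TPM with DCA, a difference of 1.26 (95% interval 0.70 to 1.82, limma adjusted p = 0.00275). Cyp2c55 had 576, 385 and 447 TPM with DMSO and 851, 869 and 782 TPM with DCA, a difference of 0.85 (95% interval 0.55 to 1.15, limma adjusted p = 0.000570). In both genes the DCA libraries lay wholly above the DMSO libraries. Cyp2c38, an epoxygenase present at low level, went from 1.801 ± 0.488 TPM (SD, n = 3) to 5.69 ± 0.905 TPM, also without overlap, a difference of 1.26 (95% interval 0.73 to 1.79, limma adjusted p = 0.00157). Cyp2c68 had 113, 63.4 and 74.4 TPM with DMSO and 136, 135 and 123 TPM with DCA. These did not overlap, but the call (difference 0.69, limma adjusted p = 0.0218) was lost in 5 of 14 alternatives, among them the fits without DMSO replicate 2, DMSO replicate 3, DCA replicate 1 or DCA replicate 2. Cyp2c65 had 239, 149 and 158 TPM with DMSO and 256, 264 and 217 TPM with DCA. DMSO replicate 1 lay above DCA replicate 3, and the call (difference 0.46, limma adjusted p = 0.0378) was lost in 8 of 14 alternatives, among them the fits without DMSO replicate 2, DMSO replicate 3, DCA replicate 1 or DCA replicate 2. Of the 31-base words, Cyp2c68 shares 62.0% with other members, Cyp2c66 39.6%, Cyp2c65 33.4% and Cyp2c38 16.2%, while Cyp2c55 shares 0.662%.

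Cyp2c29 and Cyp2c70 were not called. Cyp2c29, an epoxygenase, had 55.0, 24.7 and 46.5 TPM with DMSO and 69.1, 66.8 and 51.5 TPM with DCA, which overlapped, and the interval of its difference was wide (0.62 (95% interval -0.30 to 1.54, limma adjusted p = 0.264)). Cyp2c70, the mouse enzyme that turns CDCA into muricholic acids, was present at a low level, with 1.60, 2.40 and 1.09 TPM with DMSO, 2.26, 1.37 and 2.52 TPM with CA, 1.45, 1.40 and 1.86 TPM with CDCA and 2.54, 2.86 and 2.52 TPM with DCA. Its DCA libraries lay above its DMSO libraries, by a margin that missed the threshold, with a difference of 0.46 (95% interval 0.05 to 0.87, limma adjusted p = 0.0747).

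Of the single genes, 2 rose and 2 fell. Cyp2s1, an epithelial P450 that metabolises retinoids and lipid peroxides, had 52.3, 40.7 and 38.2 TPM with DMSO and 95.4, 93.7 and 87.8 TPM with DCA, a difference of 1.07 (95% interval 0.78 to 1.37, limma adjusted p = 0.000134) with no overlap. Cyp4v3, a fatty-acid hydroxylase, had 26.6, 16.7 and 21.4 TPM with DMSO and 37.5, 37.0 and 31.4 TPM with DCA. These did not overlap either, with a difference of 0.70 (95% interval 0.30 to 1.11, limma adjusted p = 0.0104), a call lost without DMSO replicate 2. Cyp2e1, the enzyme of ethanol, acetone and paracetamol oxidation, had 9.89, 5.99 and 9.15 TPM with DMSO, 4.72, 5.84 and 7.04 TPM with CA, 6.51, 5.63 and 7.88 TPM with CDCA and 2.40, 2.22 and 3.62 TPM with DCA. All 3 DCA libraries lay below every other library. The difference between DCA and DMSO was -1.31 (95% interval -1.74 to -0.88, limma adjusted p = 0.000372). Cyp2w1, a P450 known from fetal gut and colon tumours, had 11.6, 17.4 and 19.7 TPM with DMSO, 19.9, 7.64 and 13.8 TPM with CA, 8.54, 6.76 and 9.29 TPM with CDCA and 6.22, 7.64 and 6.52 TPM with DCA. The DCA and CDCA libraries lay below all DMSO libraries, while the CA libraries ran across the range of both. DCA differed from DMSO by -1.12 (95% interval -1.70 to -0.53, limma adjusted p = 0.00639). Neither falling gene resembles another member closely, Cyp2e1 sharing 1.83% and Cyp2w1 0% of its 31-base words.

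Another 6 expressed genes were not called between DCA and DMSO. Cyp2b10, the standard Car target, had 30.9, 15.2 and 27.2 TPM with DMSO and 34.1, 35.0 and 28.5 TPM with DCA. These overlapped, and its difference of 0.45 (95% interval -0.14 to 1.05, limma adjusted p = 0.211) did not pass. Cyp2b10 shares 19.5% of its 31-base words with other members. Differences for the lipid hydroxylases Cyp2j6, Cyp2j9 and Cyp2u1 were 0.31, -0.35 and 0.33, with limma adjusted p-values of 0.133, 0.146 and 0.119. Cyp4b1, which activates several protoxins, differed by 0.09 (95% interval -0.37 to 0.54, limma adjusted p = 0.777). Cyp2r1 differed by 0.17 (95% interval -0.24 to 0.58, limma adjusted p = 0.513) at a level of 0.826 TPM with DMSO and 1.07 TPM with DCA. Cyp4f17, above, and the pair Cyp2c29 and Cyp2c70 complete the 9 that were not called.

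**Figure D4:**
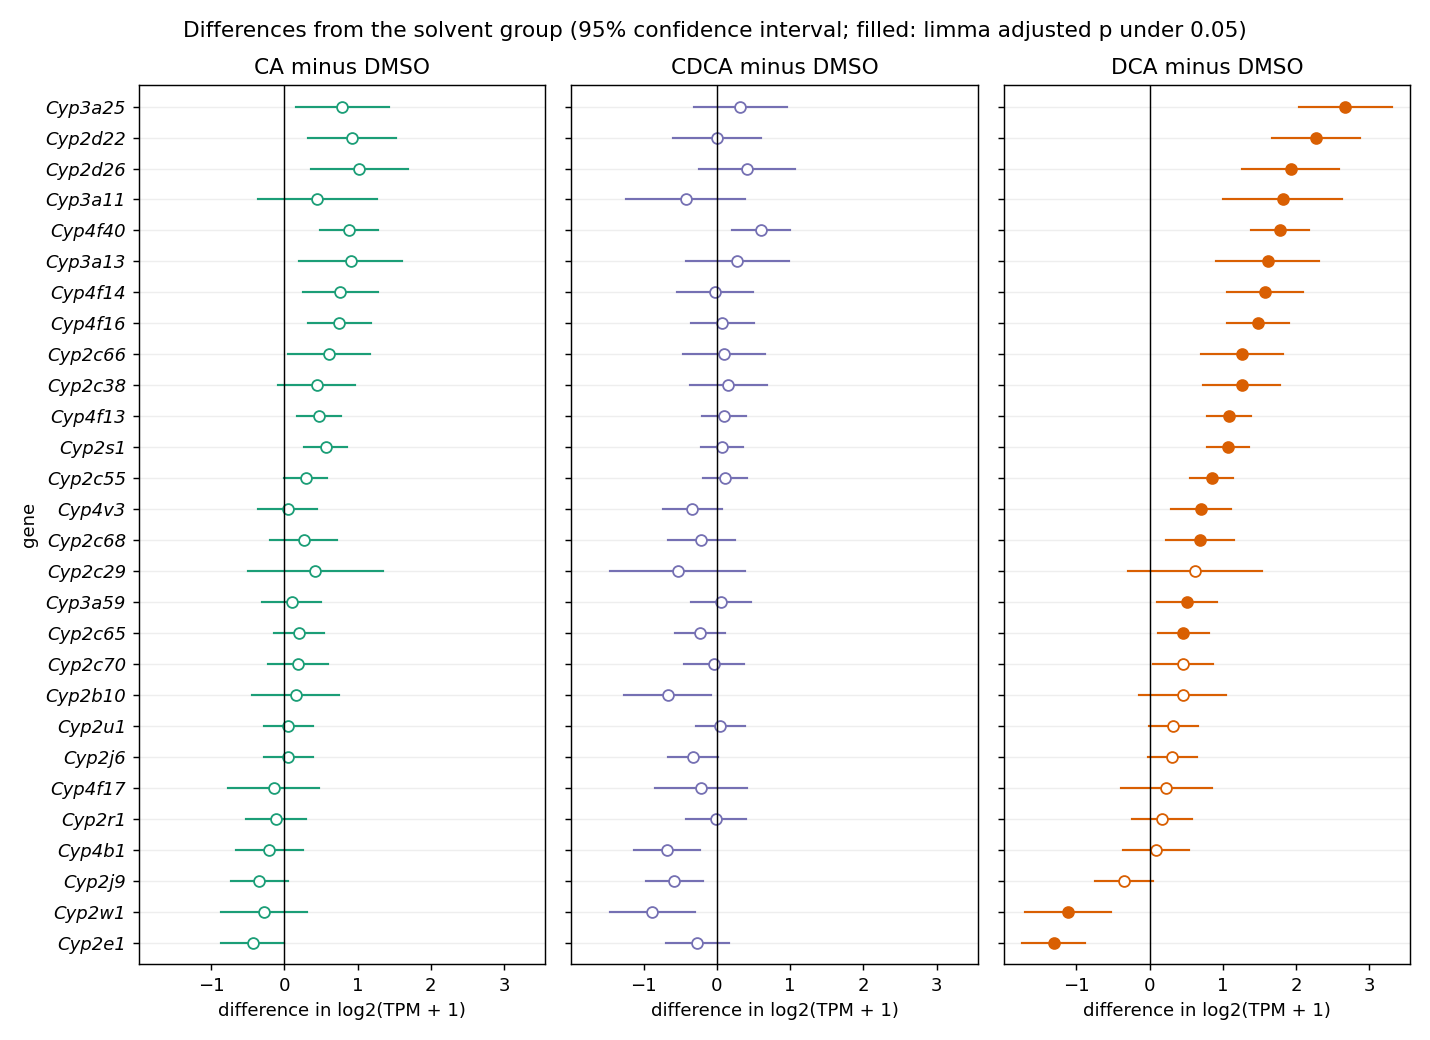
Log2 difference from DMSO of each of the 28 genes for CA, CDCA and DCA, with 95% confidence intervals. Filled points mark a limma adjusted p under 0.05. All 19 filled points are in the DCA panel, 17 to the right of 0 and 2 to the left.

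The make-up of the P450 RNA differed between the DMSO and DCA groups. Cyp2c genes held 63.0% of the group's summed P450 level with DMSO and 52.8% with DCA, while their sum went from 1002 ± 272 to 1791 ± 124 TPM (SD, n = 3). Cyp3a genes held 8.86% with DMSO and 15.1% with DCA, their sum going from 141 ± 58.0 to 512 ± 74.1 TPM. Cyp2d genes held 6.65% and 11.8%, and Cyp4f genes 10.2% and 13.1%. These shares are given without a test. By median difference from DMSO, the 2 Cyp2d genes stood at 2.10, the 4 Cyp3a genes at 1.72, the 5 Cyp4f genes at 1.48, the 7 Cyp2c genes at 0.69 and the 2 Cyp2j genes at -0.019.

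With CA, none of the 28 genes was called against DMSO by limma in either direction, beside 0.569% called higher and 0.00837% called lower among all genes tested. At an unadjusted p under 0.05 there were 10 higher and 1 lower (Cyp2e1). The share of all genes at that unadjusted level is not given here, so these counts cannot be judged against it. The median difference of the 28 was 0.28, against 0.028 over all genes tested. In 7 genes all CA libraries lay above all DMSO libraries (11.8% of all genes tested): Cyp2d22, Cyp2d26, Cyp2s1, Cyp4f13, Cyp4f14, Cyp4f16 and Cyp4f40. In 0 of the 28 did all CA libraries lie below all DMSO libraries (5.21% of all genes tested). The smallest adjusted p was that of Cyp4f40, with a difference of 0.88 (95% interval 0.49 to 1.28, limma adjusted p = 0.0540). Cyp2d26 stood at 1.02 (95% interval 0.36 to 1.69, limma adjusted p = 0.158), Cyp2d22 at 0.92 (95% interval 0.32 to 1.52, limma adjusted p = 0.158) and Cyp3a13 at 0.90 (95% interval 0.20 to 1.61, limma adjusted p = 0.223). The count depended on 1 control library. Without DMSO replicate 1, 4 genes were called higher (Cyp2s1, Cyp3a25, Cyp4f16 and Cyp4f40), and the share of all genes in that fit is not given here. Without both DMSO replicate 1 and CDCA replicate 3, which share the estimate of the spread, 13 were (8.08% of all genes tested, either direction). Those libraries were picked because they lay apart along the line to DCA, so the counts without them are a description. In a fit of only the 6 CA and DMSO libraries, Cyp2d22 and Cyp4f40 were called (share of all genes not given here). The enterocyte marker sum was 6991, 4584 and 5811 TPM in the CA libraries, overlapping that with DMSO, and 0 of the 20 markers was called, with a median difference of 0.63 (11 called without both libraries, 1 without DMSO replicate 1). Without both libraries 9 of 13 stem cell and 8 of 15 proliferation markers were called lower, against 0 with them. The part of these markers in the result was not tested.

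With CDCA, none of the 28 was called by limma, beside 0.510% higher and 0.0837% lower among all genes tested. At an unadjusted p under 0.05, Cyp4f40 was higher and Cyp2b10, Cyp2j9, Cyp2w1 and Cyp4b1 were lower. How many of all genes tested reach that unadjusted level is not given here. The median difference was -0.021, against 0.018 over all genes tested. The CDCA libraries lay wholly above the DMSO libraries for Cyp4f40 alone (6.97% of all genes tested) and wholly below for Cyp2j9, Cyp2w1 and Cyp4b1 (3.03%). Cyp4f40 differed by 0.60 (95% interval 0.20 to 1.00, limma adjusted p = 0.242). Cyp4b1 had 13.2, 9.85 and 13.3 TPM with DMSO and 5.74, 6.25 and 9.82 TPM with CDCA. CDCA replicate 3 lay just below the lowest DMSO library, and the difference was -0.69 (95% interval -1.14 to -0.23, limma adjusted p = 0.242). Cyp2w1 differed by -0.88 (95% interval -1.47 to -0.30, limma adjusted p = 0.247) and Cyp2j9 by -0.58 (95% interval -0.97 to -0.19, limma adjusted p = 0.254). For Cyp3a11 the interval ran from a fall to a rise, -0.43 (95% interval -1.25 to 0.39, limma adjusted p = 0.817). No gene was called with any single library left out, or without both DMSO replicate 1 and CDCA replicate 3. The 3 CDCA libraries were not alike: replicate 3 had a P450 sum of 2094 TPM and an enterocyte marker sum of 4984 TPM, against 1360.2 and 1335 TPM for P450 and 3293 and 3173 TPM for the markers in replicates 1 and 2. In 0 of the 20 enterocyte markers was a difference from DMSO called.

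The 3 acids are given at the same dose and time in the labels, so their readouts were set against each other directly, in 3 comparisons. DCA stood above CDCA for most expressed P450 genes. Of the 28, 19 were called higher and 1 lower (Cyp2e1), beside 12.8% higher and 15.0% lower among all genes tested, with a median of 1.00 against -0.052. In 23 of the 28 all DCA libraries lay above all CDCA libraries (21.3% of all genes tested), and in Cyp2e1 all lay below (27.1%). Cyp3a25 differed by 2.36 (95% interval 1.72 to 2.99, limma adjusted p = 0.000639), Cyp2d22 by 2.28 (95% interval 1.68 to 2.88, limma adjusted p = 0.000573) and Cyp3a11 by 2.25 (95% interval 1.43 to 3.06, limma adjusted p = 0.00221). Cyp2b10, not called in either acid against DMSO, had 11.7, 12.2 and 20.5 TPM with CDCA and 34.1, 35.0 and 28.5 TPM with DCA. Those libraries did not overlap and differed by 1.12 (95% interval 0.53 to 1.72, limma adjusted p = 0.00974). Cyp2j6 (0.64 (95% interval 0.31 to 0.98, limma adjusted p = 0.00916)) and Cyp4b1 (0.77 (95% interval 0.32 to 1.23, limma adjusted p = 0.0161)) were further genes called here and not against DMSO, Cyp4b1 losing its call without CDCA replicate 1, CDCA replicate 2, DCA replicate 1 or DCA replicate 2. Cyp2e1 differed by -1.04 (95% interval -1.47 to -0.61, limma adjusted p = 0.00288). For Cyp2w1, which was low under both acids, the difference was -0.23 (95% interval -0.82 to 0.35, limma adjusted p = 0.552). Without both DMSO replicate 1 and CDCA replicate 3, 22 were called higher and 1 lower (37.1% of all genes tested, either direction). CDCA replicate 3 was the CDCA library nearest to DCA, so the choice itself widens this comparison too. Of the enterocyte markers 19 of 20 were called higher with DCA than with CDCA, while 15 of 15 proliferation markers, 12 of 13 stem cell markers, 6 of 8 Paneth cell markers, 1 of 8 goblet cell markers and 2 of 8 enteroendocrine markers were called lower. The P450 sum divided by the enterocyte marker sum was 0.413 to 0.421 in the CDCA libraries, above the 0.344 to 0.378 with DCA. The part of the markers in the result was not tested.

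DCA against CA gave fewer calls. Of the 28, 11 were called higher and 1 lower (Cyp2e1, -0.88 (95% interval -1.31 to -0.45, limma adjusted p = 0.0140)), beside 5.79% higher and 8.94% lower among all genes tested, with a median of 0.47 against -0.050. In 18 of the 28 all DCA libraries lay above all CA libraries (16.9% of all genes tested), and in Cyp2e1 all lay below (28.7%). The 11 were Cyp3a11, Cyp3a25, Cyp2d22, Cyp2c38, Cyp2c55, Cyp2s1, Cyp4f13, Cyp4f14, Cyp4f16, Cyp4f40 and Cyp4v3. Cyp3a25 differed by 1.89 (95% interval 1.25 to 2.52, limma adjusted p = 0.00408), Cyp2d22 by 1.36 (95% interval 0.75 to 1.96, limma adjusted p = 0.00956) and Cyp4f40 by 0.90 (95% interval 0.50 to 1.29, limma adjusted p = 0.00922), and these 3 were called in all 14 alternatives. The other calls each failed in 3 or more alternatives. The count fell to 3 without CA replicate 2 or DCA replicate 1 and to 4 without CA replicate 3 or DCA replicate 2. It fell to 6 without DCA replicate 3. It was 16 without both DMSO replicate 1 and CDCA replicate 3 (23.7% of all genes tested, either direction). The share of all genes called is not given for the fits without 1 library. The call of Cyp2e1 was lost without CA replicate 2, CA replicate 3, DCA replicate 1 or DCA replicate 2. Cyp2d26 (0.90 (95% interval 0.24 to 1.56, limma adjusted p = 0.0671)) and Cyp2w1 (-0.84 (95% interval -1.42 to -0.25, limma adjusted p = 0.0558)) missed the threshold. Of the enterocyte markers 4 of 20 were called higher (0 without CA replicate 2, CA replicate 3, DCA replicate 1 or DCA replicate 2, 1 without DCA replicate 3, 15 in a fit of only the 6 libraries compared and 13 without both DMSO replicate 1 and CDCA replicate 3). Markers of other cell types were called lower with DCA: 15 of 15 for proliferation, 8 of 8 for goblet cells, 8 of 13 for stem cells, 5 of 8 for enteroendocrine cells and 3 of 8 for Paneth cells. Over the 14 alternatives these counts were 13 to 15, 8 throughout, 3 to 10, 4 to 5 and 1 to 6. The part of these markers in the result was not tested.

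CDCA against CA gave no call by limma among the 28, beside 0.00837% higher and 0.0251% lower among all genes tested. At an unadjusted p under 0.05, 13 were lower and 0 higher with CDCA. The share of all genes at that unadjusted level is not given here, so whether 13 is unusual cannot be judged. The differences lay below 0 in 26 of 28 genes, with a median of -0.45 against -0.0027 over all genes tested, and 5 genes had all CDCA libraries below all CA libraries (6.47% of all genes tested): Cyp2b10, Cyp2c65, Cyp2d22, Cyp2s1 and Cyp4f14. In 0 of the 28 did they lie wholly above (4.19%). The intervals do not exclude sizeable differences: Cyp3a11 stood at -0.88 (95% interval -1.69 to -0.06, limma adjusted p = 0.671), Cyp2d22 at -0.92 (95% interval -1.53 to -0.32, limma adjusted p = 0.487), Cyp4f14 at -0.79 (95% interval -1.31 to -0.28, limma adjusted p = 0.487) and Cyp2s1 at -0.49 (95% interval -0.78 to -0.20, limma adjusted p = 0.416). A p that misses the threshold does not show that the acids act alike. Without CDCA replicate 3, Cyp2d22 and Cyp2s1 were called lower (share of all genes not given here). Without both that library and DMSO replicate 1, 15 genes were (3.68% of all genes tested, either direction). Both libraries were picked for lying apart, so this is a description. The enterocyte markers had a median difference of -0.65 with 0 of 20 called (13 lower without both libraries), and their part was not tested. The comparisons with DMSO share its 3 libraries, and those between acids share theirs, so the 6 comparisons are not independent.

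Genes that serve the P450 enzymes rose with DCA as well. Of 18 genes of electron supply and haem metabolism, 11 were called higher and 2 lower (Blvra and Urod), with a median difference of 0.43. Among all genes tested 18.8% were called higher and 19.2% lower, with a median of -0.021. Urod lost its call without DMSO replicate 2, DMSO replicate 3, DCA replicate 1 or DCA replicate 2. With CA or CDCA 0 of the 18 were called. Of all genes tested, 0.569% (CA) and 0.510% (CDCA) were called higher, so a count of 0 says little. For CA that count was 1 higher without DMSO replicate 1. It was 4 higher without both DMSO replicate 1 and CDCA replicate 3 (8.08% of all genes tested, either direction). Por, the electron donor of all these enzymes, had a mean of 92.2 TPM in the DMSO libraries, 137 TPM under CA, 122 TPM under CDCA and 222 TPM under DCA. Its difference between DCA and DMSO was 1.26 (limma adjusted p = 7.08e-05). Cytochrome b5 (Cyb5a), its reductase (Cyb5r3) and the haem-binding membrane protein Pgrmc2 differed by 0.92, 0.90 and 0.67, with limma adjusted p-values of 0.000381, 0.000414 and 0.000272.

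Of 22 regulators 12 were called higher with DCA and 1 lower (Cdx2), with a median of 0.31. Among all genes tested 18.8% were called higher and 19.2% lower, with a median of -0.021. The count higher was 7 without DCA replicate 1 or DCA replicate 2, 8 without DMSO replicate 2 and 16 without DMSO replicate 3, and Cdx2 lost its call without DCA replicate 1 or DMSO replicate 3. Nr1i3, the receptor Car, had a mean of 18.8 TPM with DMSO and 60.7 TPM with DCA, a difference of 1.64 (limma adjusted p = 0.000114). Nr1i2, the receptor Pxr, differed by 0.64 (23.2 to 36.6 TPM, limma adjusted p = 0.000502), Ppara by 1.25 (limma adjusted p = 0.00439) and Nr1h4, the bile acid receptor Fxr, by 0.87 (limma adjusted p = 0.00727). The fat-cell regulator Pparg, at 0.50, and the oxidative stress factor Nfe2l2, at 0.60, were called as well, with limma adjusted p-values of 0.00107 and 0.00112. Ahr (0.29, limma adjusted p = 0.0827) and the vitamin D receptor Vdr (0.14, limma adjusted p = 0.296) did not pass. With CA and with CDCA, 0 of the 22 regulators were called, beside 0.569% and 0.510% called higher among all genes tested, so this says little. CA gave 1 higher in a fit of only the 6 libraries compared. It gave 4 higher without both DMSO replicate 1 and CDCA replicate 3 (8.08% of all genes tested, either direction).

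Target genes of the same regulators outside the P450 family were counted too, and the lists overlap in part, Por, Alas1, Gsta1 and Nfe2l2 each standing in 2 of them and Fabp1 also being an enterocyte marker. Of 19 tested Pxr and Car targets, 18 were called higher with DCA and 0 lower, with a median of 1.04. For this and the next 2 lists, 18.8% of all genes tested were called higher and 19.2% lower, with a median of -0.021. The glutathione transferases Gstm1, Gstm2 and Gstm3 differed by 1.73, 1.71 and 2.33, and the bile salt and conjugate exporter Abcc2 by 1.35, with limma adjusted p-values from 3.18e-06 to 4.35e-05. The 3 transferases were also called with CA (Gstm3 1.13, Gstm1 0.76 and Gstm2 0.64, limma adjusted p = 0.00903, 0.0135 and 0.0481). That count of 3 was 2 without DMSO replicate 3 or CA replicate 2, and 0 without DMSO replicate 2, CA replicate 1 or CA replicate 3. It was 14 without both DMSO replicate 1 and CDCA replicate 3 (8.08% of all genes tested, either direction). With all libraries 0.569% of all genes tested were called higher with CA. Of 19 tested Ppara targets 15 were called higher with DCA, with a median of 0.70. The peroxisomal enzymes Acaa1b and Ehhadh differed by 2.48 and 0.97 and the mitochondrial carnitine enzyme Cpt2 by 0.76, with limma adjusted p-values from 0.000110 to 0.000222, in the same libraries in which Cyp4a10 and Cyp4a14 stayed near 0. Of 6 tested Ahr targets 5 were called higher and 1 lower (Ugt1a6a, a call lost without DMSO replicate 3 or any single DCA library), with a median of 0.63. Of the 5, the call of Fam102a (0.26, limma adjusted p = 0.0455) was lost in 10 of 14 alternatives, among them the fits without DMSO replicate 1, without DMSO replicate 2 or without any single DCA library. Among them Tiparp and Nqo1 differed by 0.86 and 0.65 (limma adjusted p = 0.000300 and 0.000392), while the defining targets Cyp1a1, Ahrr and Aldh3a1 did not pass the filter, Aldh3a1 being listed at 0. The enterocyte markers given above moved in the same libraries as all of these lists.

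P450 genes of other families were looked at beside the 28. Of 19 found, 6 passed the filter. Cyp24a1, which breaks down active vitamin D and is a standard Vdr target, had means of 0.223 TPM with DMSO, 5.57 TPM with CDCA and 5.90 TPM with DCA and was listed at 0 in the 3 CA libraries. It was called higher with CDCA and with DCA than with DMSO (limma adjusted p = 9.54e-05 and 7.65e-06). In the comparison of CDCA with DMSO none of the 28 was called. For Cyp24a1 DCA and CDCA differed by 0.07 (limma adjusted p = 0.810). Cyp51, the sterol demethylase of cholesterol synthesis, was higher with DCA (0.90, limma adjusted p = 0.000122), and Cyp20a1, a P450 without a known substrate, was lower (-0.41, limma adjusted p = 0.0138), a call lost without DCA replicate 3. The sterol hydroxylase Cyp27a1 differed by -0.11 (limma adjusted p = 0.765).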

How the data were processed

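Poly(A) RNA of 12 organoid libraries was sequenced from both ends with strand-marked second strands, per the labels' protocols. For each library the authors deposited a TPM table of 32587 gene rows. The submitters' processing notes name Salmon 1.8.0 and mouse build GRCm39. How transcripts were summed to genes, the annotation behind them and the strand setting were not given in the sources used here. As shares of a total, TPM values hold no read depth, and they can be divided wrongly among similar copies. The rows of a library summed to 889156 to 936841 TPM, so part of that total is not listed.

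Groups came from the treatment labels. Values were taken as log2(TPM + 1) and rows that reached 1 TPM in 3 or more libraries entered limma 3.58.1 in R 4.3.3 (mean-variance trend, robust moderation, 4 group means, 6 comparisons each adjusted on its own). The model was tested on simulated data. All 28 genes past the filter are named, with the textbook inducible genes below it and, of each pathway list, up to 4 genes with the smallest p and 7 set names (Por, Nr1i2, Nr1i3, Ahr, Ppara, Nr1h4 and Vdr), less 1 gene that is not reported here. The members and lists were chosen with earlier results of these data known. Shared sequence is the percent of a gene's 31-base words, over its protein-coding transcripts in GENCODE (81 of the 83 genes), that occur in another member. Pseudogenes and genes outside the 83 were not compared. Gene order and promoter windows are from RefSeq tables of GRCm38.p6, matched by symbol. As alternatives, the pseudocount was set to 0.1, the filter was dropped, TPM were rescaled by median ratios, the replicate block was added, each fit was limited to its own 6 libraries, trend and robust moderation were dropped, 13 mitochondrial and 2 rRNA rows were removed, and libraries were left out.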

Additional observations from a re-analysis of the deposited data

How the results depend on the processing

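Leaving out 1 library at a time gave 0 to 4 genes higher for CA against DMSO, 14 to 18 higher and 2 to 3 lower for DCA against DMSO, 0 to 2 lower for CDCA against CA, 3 to 9 higher and 0 to 1 lower for DCA against CA, and 18 to 20 higher for DCA against CDCA. Without CDCA replicate 3 and DMSO replicate 1 together, 13 genes were higher for CA against DMSO and 15 lower for CDCA against CA. In the same fit 2 were lower for DCA against CA (Cyp2e1 and Cyp2w1). Over all genes tested, 8.08%, 3.68% and 23.7% were called in these comparisons, in that order and in either direction. Only the 6 libraries compared gave 2 higher for CA against DMSO, and no filter on low values gave 5 higher for DCA against CA. For these fits, those without 1 library and those with the replicate block, the share of all genes called is not given here. A change of the P450 count in them cannot be told from a change over all genes. With mitochondrial and rRNA rows left out, 2 genes were lower for DCA against CA (22.1% of all genes tested called, either direction). The mean summed P450 level became 2172 TPM for DMSO, 2775 for CA, 2113 for CDCA and 4197 for DCA, since the rest was rescaled. That removal moved the median of all tested genes by -0.13 in DCA against DMSO, where the P450 median became 0.52 over the 30 genes then tested, against -0.15 over all genes. No called gene changed its sign in any alternative: over the called genes and their alternatives, 636 values kept their call and 78 did not. Without a library the summed levels were 1358 to 1765 TPM for DMSO, 2066 to 2309.9 for CA, 1348 to 1727 for CDCA and 3284 to 3561 for DCA.

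The replicate block gave 16 higher for DCA against DMSO, 10 higher for DCA against CA, 20 higher for DCA against CDCA and 0 for the other comparisons, and it changed no count by over 1.5 times. The labels do not say that a number marks a shared culture, and of 18 pairs with the same number the deviations correlated at -0.38 to 0.11, with 3 above 0.1, so the numbers were not taken to pair the libraries. The read depth is unknown, so what it limits cannot be stated, and differences of genes near 1 TPM are understated by the pseudocount.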
